A study of Mus musculus with 7 samples.

Results

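The genes described are those of the pre-mRNA splicing machinery whose symbols in the count table begin with Srsf, Hnrnp, Sf3a, Sf3b, Prpf (each followed by its number or letter) or with Snrp and a letter from a to g, leaving out Srsf2 and Sf3b1. They number 62 of 24015 rows: 10 SR proteins, 20 heterogeneous nuclear ribonucleoproteins (hnRNPs), 8 subunits of SF3A and SF3B, 11 proteins of the small nuclear ribonucleoproteins (snRNPs) and 13 PRPF proteins. They were measured in haematopoietic stem cells (HSCs) of C57BL/6 mice, sorted by flow cytometry from bone marrow as LSK cells (lacking lineage markers, carrying Sca-1 and c-Kit) that were CD150+ and CD48-. Old HSCs gave 3 libraries and young HSCs 4, and the comparison asks which transcripts differ with age. No transgene, treatment or exact age is stated, nor whether each library is a separate mouse, so p-values measure the spread between these samples, which may be partly technical.

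Splicing removes introns from nuclear transcripts. The U1 snRNP binds the start of an intron and the U2 snRNP, with SF3A and SF3B, the branch point, after which the U4/U6.U5 tri-snRNP joins and the catalytic spliceosome forms. A ring of Sm proteins holds the RNA of most spliceosomal snRNPs. The snRNP genes described, labelled snRNP core below, include Sm proteins and proteins particular to the U1 or U2 snRNP. SR proteins carry arginine- and serine-rich tails and mostly favour the use of nearby exons, while many hnRNPs favour skipping. Many genes of both families limit their own level by splicing in exons that send the transcript to decay, and counts per gene, as here, do not separate such transcripts from productive ones. Fewer cells of a type and less RNA per cell cannot be told apart in bulk samples.

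Totals were 27369677 to 32401925 counts in old and 22203806 to 27146186 in young libraries. Levels are given as CPM, the count relative to the TMM-scaled library total. Libraries of a group varied widely: the common biological coefficient of variation was 106%, and log2 CPM correlated at 0.724 to 0.736 among old, at 0.669 to 0.784 among young and at 0.623 to 0.723 between old and young libraries. Earlier results of this table set young 1 and young 2 apart, so values that lean on them are also given without both. All 6 markers of the sorted cells, among them Kit, Ly6a, Slamf1, Procr and Mecom, had counts in every library. Of the defining markers of other marrow cells, Ctsg and Csf1r (myeloid), Hba-a1 and Hbb-b1 (erythroid), Ebf1, Pax5 and Ms4a1 (B cells) and Cd3e and Cd8a (T cells) had no count in any library. The other listed markers of these cells had counts in at least 1 library. The summed level was 1424 to 2195 CPM in old and 858 to 1423 CPM in young HSCs for the 8 myeloid markers and 11.1 to 44.2 and 73.9 to 109.9 CPM for the 6 erythroid markers. Sums of the 6 markers each of megakaryocytes, B cells and T or NK cells overlapped between the groups. The T or NK sum joined genes of unlike pattern. Klrb1c had 109 to 238 CPM in old and 0 to 12.2 CPM in young libraries (adjusted p = 0.324, edgeR). Nkg7 had 21.3 to 105 CPM in old and 65.4 to 382 CPM in young libraries. Sums of the sort markers were 2259 to 2540 CPM in old and 1144 to 1884 CPM in young HSCs. The 20 genes of G2 and mitosis summed to 258 to 918 CPM in old and 1636 to 3289 CPM in young HSCs. Whether these markers or cell division bear on the levels below was not tested.

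Of the 62 genes, 61 had enough counts to be tested, and none passed an adjusted p of 0.05 in edgeR, where 0.235% of all 11506 tested genes were called higher and 0.0174% lower. At an unadjusted p under 0.05, 1 was higher (Srsf6) and 4 were lower (Hnrnpd, Hnrnpl, Srsf1 and Snrpa1), against 4.62% and 4.49% of all tested genes (9.12% in either direction). That is 1.64% of the 61 genes higher and 6.56% lower, or 8.20% in either direction. DESeq2 called Hnrnpd and Hnrnpl lower and none higher, where it called 2.65% of all genes with an adjusted p lower and 2.49% higher. limma-voom called none, against 0.426% of genes higher and 0.00869% lower.

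As a set the splicing genes lay on the low side in old HSCs. Of the 61, 46 had a log2 fold change below 0, where 51.5% of all tested genes did, and 15 were above 0, where 48.5% did. Their median log2 fold change was -0.31, beside -0.03 over all tested genes. At a mean level of 50 CPM or more, 37 of 47 splicing genes were below 0, where 47.7% of all 4508 genes of that level were. The medians were -0.22 and 0.03. That mean is over old and young libraries, so a gene low in old HSCs can reach it through the young, as Hnrnpd and Hnrnpl did. The median of the 61 depended on the young libraries: it was -0.20 without young 2 and -0.11 without both young 1 and young 2, where 40 of 61 were below 0.

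The share of all counts that fell on the 62 genes was 1.27%, 1.32% and 1.29% in the old libraries, against 1.51%, 1.65%, 1.61% and 1.54% in the young. Every old library was below every young one. Setting young 1 and young 2 aside could not undo that separation, so it is no check on them. The mean share was 1.29% ± 0.0241 in old (SD, n = 3) and 1.58% ± 0.0663 in young HSCs (SD, n = 4). On the TMM scale the summed level was 13215 to 13606 CPM in old and 14511 to 17328 CPM in young HSCs.

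**Figure D1:**
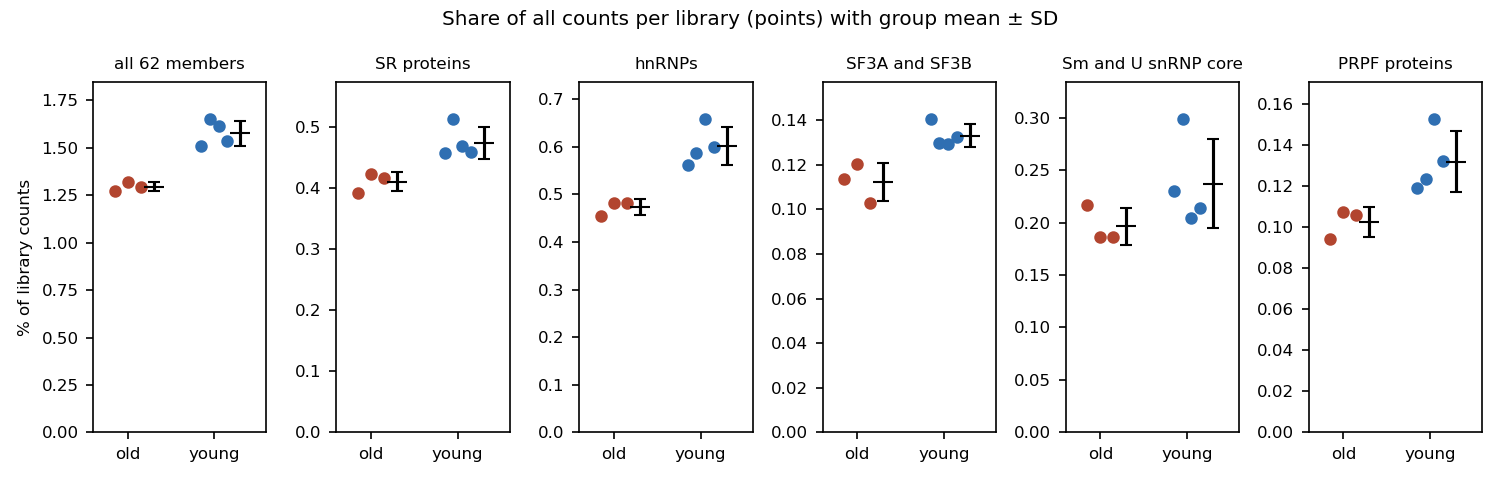
Percent of all counts in each library (points) on the 62 splicing genes and on each of the 5 families, old left of young, with the mean and SD of each group beside the points. The old libraries lie at 1.27% to 1.32% and the young at 1.51% to 1.65% for all 62 genes.

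The groups of 5 splicing genes were separate: Hnrnpd, Hnrnpl, Snrpa1 and Srsf7 lower in each old library, where 5.18% of all tested genes were, and Srsf6 higher, where 7.55% were. They are 8.20% of the 61 genes, where 12.7% of all tested genes were separate in either direction, so separation was not more frequent among the splicing genes. Their promoter windows are shown to give the sequence context of the genes with separate groups. Each runs from 250 bases before to 50 bases after a transcription start of RefSeq on GRCm38.p6, a later build than the mm9 of the deposited counts, so the positions apply to that build alone. The windows are chr5:99978889-99979188 (minus strand) for Hnrnpd, chr7:28810640-28810939 (plus strand) for Hnrnpl, chr7:66060086-66060385 (plus strand) for Snrpa1, chr17:80207256-80207555 (minus strand) for Srsf7 and chr2:162931258-162931557 (plus strand) for Srsf6. Capitals mark matches, on either strand, to the GC box GGGCGG, the CCAAT box CCAAT, the ETS core CCGGAA, the E-box CACGTG and the TATA box TATAAA, written 5′ to 3′ along the gene's strand.
Hnrnpd: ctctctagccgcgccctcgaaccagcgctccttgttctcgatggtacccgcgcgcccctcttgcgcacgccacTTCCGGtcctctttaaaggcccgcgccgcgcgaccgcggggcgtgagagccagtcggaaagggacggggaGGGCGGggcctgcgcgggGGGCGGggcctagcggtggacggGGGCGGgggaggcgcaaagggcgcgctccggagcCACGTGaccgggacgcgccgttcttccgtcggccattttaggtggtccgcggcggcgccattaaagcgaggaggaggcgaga
Hnrnpl: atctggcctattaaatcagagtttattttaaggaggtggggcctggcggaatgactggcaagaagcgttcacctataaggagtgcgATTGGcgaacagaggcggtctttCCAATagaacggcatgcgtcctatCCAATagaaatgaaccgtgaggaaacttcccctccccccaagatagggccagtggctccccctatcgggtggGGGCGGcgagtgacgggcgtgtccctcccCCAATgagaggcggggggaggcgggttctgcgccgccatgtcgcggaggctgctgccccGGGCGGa
Snrpa1: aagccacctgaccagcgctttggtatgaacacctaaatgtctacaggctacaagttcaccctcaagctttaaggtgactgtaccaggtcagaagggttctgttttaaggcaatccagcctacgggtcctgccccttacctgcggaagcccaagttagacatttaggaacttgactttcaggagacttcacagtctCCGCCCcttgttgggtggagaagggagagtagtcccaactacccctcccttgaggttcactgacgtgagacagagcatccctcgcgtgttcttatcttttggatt
Srsf7: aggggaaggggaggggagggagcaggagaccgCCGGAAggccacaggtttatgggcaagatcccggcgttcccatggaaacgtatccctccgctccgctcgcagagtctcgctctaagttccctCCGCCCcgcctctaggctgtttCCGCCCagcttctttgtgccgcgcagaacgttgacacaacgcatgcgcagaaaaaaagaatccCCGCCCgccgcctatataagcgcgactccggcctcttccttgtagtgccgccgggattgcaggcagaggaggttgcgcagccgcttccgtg
Srsf6: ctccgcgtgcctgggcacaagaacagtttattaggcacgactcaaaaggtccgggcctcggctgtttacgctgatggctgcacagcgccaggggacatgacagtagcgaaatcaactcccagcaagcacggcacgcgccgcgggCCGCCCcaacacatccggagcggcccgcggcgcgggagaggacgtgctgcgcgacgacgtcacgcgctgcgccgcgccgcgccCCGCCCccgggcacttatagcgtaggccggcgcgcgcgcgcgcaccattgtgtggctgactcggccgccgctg

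Hnrnpd had 3 GC boxes, 1 ETS core and 1 E-box and Srsf7 3 GC boxes and 1 ETS core. Hnrnpl had 4 CCAAT boxes and 2 GC boxes, Srsf6 2 GC boxes and Snrpa1 1 GC box, and no TATAAA occurred in these 5 windows. Windows were listed for 54 of the 62 genes (71 windows, some genes having several starts). The GC box was in 66.2% of these windows and in 35.7% of all 32851 promoter windows, the ETS core in 49.3% and 14.9%, the CCAAT box in 47.9% and 37.4%, the E-box in 15.5% and 7.15% and TATAAA in 7.04% and 13.6%. The median GC content was 60.3% in the windows of the splicing genes and 52.7% in all windows. A match describes letters and not binding. Hnrnpll, Hnrnpul2, Prpf18, Sf3b4, Sf3b5, Snrpb and Snrpd1 were among the 8 genes with no entry.

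Of the 20 hnRNPs, all tested, 17 had a log2 fold change below 0, with a median of -0.43. Their share of counts was 0.453% to 0.483% in old and 0.562% to 0.658% in young libraries, and their summed level 4826 to 5075 CPM and 5467 to 6158 CPM, without overlap on either scale. This was not particular to hnRNPs. SF3A and SF3B summed to 1084 to 1208 CPM in old and 1211 to 1367 CPM in young libraries. PRPF proteins summed to 1000 to 1113 and 1156 to 1426 CPM. The shares of these families did not overlap either, while the snRNP core overlapped on both scales. Each old library held the lowest level of 6 or 7 of the 20 hnRNP genes, and 17 of the 20 had their highest level in a young library. These genes share the same libraries and scaling, so the counts describe those libraries. No such count over all tested genes is given here for comparison.

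Hnrnpd encodes AUF1, which binds AU-rich elements of messenger RNAs and is best known for promoting their decay. Its level was 45.7, 47.1 and 51.0 CPM in the old libraries, against 103, 104, 175 and 131 CPM in the young. The old values lie close together and all below the young. Hnrnpd averaged 47.9 ± 2.77 CPM over the old libraries (SD, n = 3) and 129 ± 33.8 CPM over the young (SD, n = 4; all means below are given so), 2.68-fold lower in old. The log2 fold change was -1.42 ± 0.31 (SE; 95% interval -2.12 to -0.73), with an adjusted p of 0.138 in edgeR, 0.112 in limma-voom and 2.30e-04 in DESeq2. Refitted to genes averaging 50 CPM or more, edgeR gave Hnrnpd an adjusted p of 0.0469, and called 1.13% of genes lower and 1.75% higher. Hnrnpd averaged under 50 CPM in old HSCs and entered that fit only through the young libraries, so its result there is no separate support. Leaving out each library in turn kept its log2 fold change between -1.52 and -1.24, and without young 1 and young 2 it was -1.68.

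Hnrnpl binds CA-rich RNA and acts as a repressor or an activator of exons by position. It had 30.5, 55.7 and 47.3 CPM in the old libraries, against 182, 71.3, 225 and 109 CPM in the young. The groups did not overlap, but the young libraries spread more widely than those of Hnrnpd, and young 2 was nearest to the old. Hnrnpl averaged 44.5 ± 12.8 CPM in old HSCs, against 147 ± 69.3 in young, with a log2 difference of -1.72 ± 0.45 (SE). Its adjusted p was 0.191 in edgeR and 0.00814 in DESeq2. Its relative Hnrnpll, known from the splicing of the CD45 transcript in lymphocytes, averaged 67.0 ± 14.4 CPM across old and 118 ± 40.0 CPM across young libraries (adjusted p = 0.550, edgeR). There the groups overlapped, since young 2 had 64.3 CPM.

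Hnrnpu, a nuclear scaffold protein that also binds chromatin, averaged 177 ± 53.1 CPM in old HSCs, against 304 ± 119.7 in young (log2 fold change -0.78 ± 0.36, adjusted p = 0.576, edgeR). For several abundant hnRNPs the intervals included 0 and were narrow. Hnrnpk, which binds C-rich RNA and has the highest level per kilobase of exon among the hnRNPs (571 CPM per kb in old, 627 CPM per kb in young HSCs), had a log2 fold change of -0.13 with a 95% interval of -0.55 to 0.29. Hnrnpc, which binds U tracts, averaged 487 ± 107 CPM across old and 438 ± 34.8 CPM across young libraries (interval -0.31 to 0.62). Hnrnpm, which binds GU-rich RNA, averaged 269 ± 75.6 and 262 ± 48.0 CPM in old and young HSCs (interval -0.56 to 0.63).

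**Figure D2:**
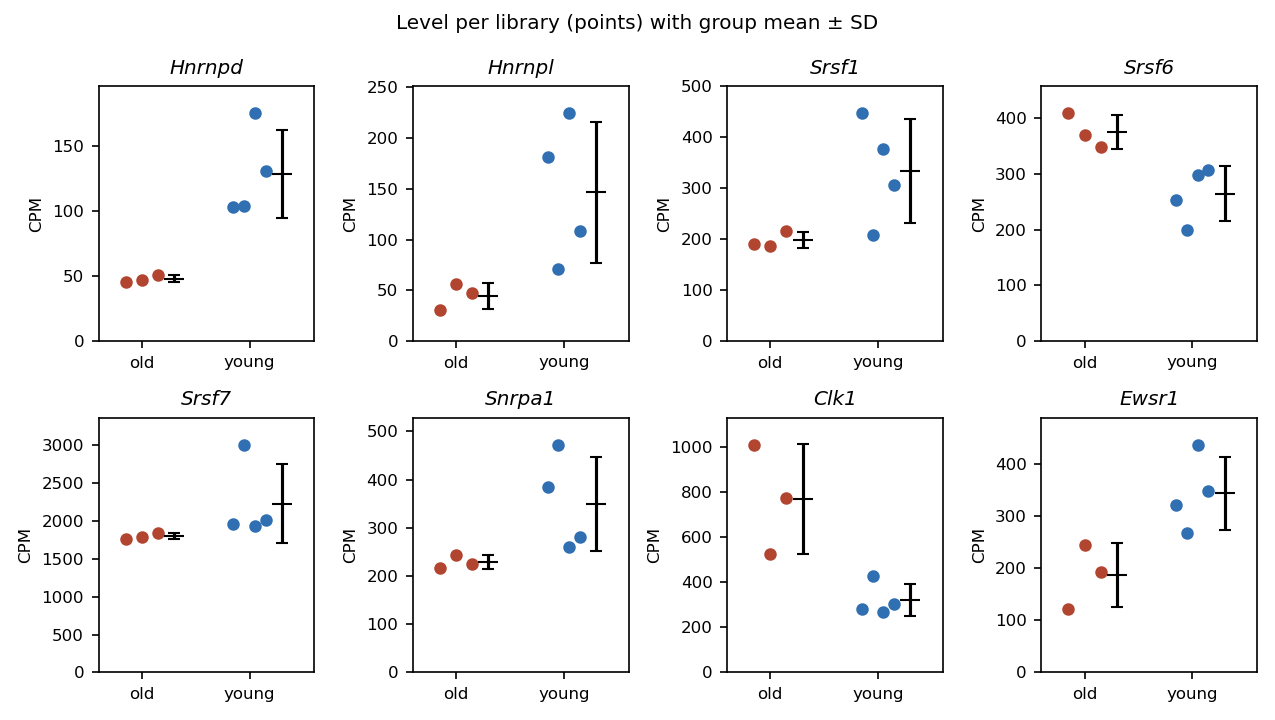
CPM of 6 splicing genes, the SR protein kinase gene Clk1 and the RNA-binding protein gene Ewsr1 in each library (points), old left of young, with the group mean and SD beside the points. Hnrnpd holds 45.7 to 51.0 CPM in old and 103 to 175 CPM in young libraries, while Srsf6 is higher in each old library than in any young one.

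As in the other families, the SR proteins did not all share a direction. Of 9 tested, 6 were below 0 and 3 above, with a median log2 fold change of -0.16. Their share of counts was 0.392% to 0.422% in old and 0.456% to 0.512% in young libraries, but on the TMM scale the groups overlapped, at 4169 to 4379 and 4333 to 5377 CPM. Srsf1, the founding SR protein and in excess an oncoprotein, had 190.0, 187 and 216 CPM in the old libraries, against 447, 208, 377 and 305 CPM in the young. Young 2 lay within the old range and the other 3 young libraries above it. Srsf1 averaged 198 ± 16.1 CPM in old HSCs, against 335 ± 102 in young. The log2 fold change was -0.76 ± 0.27 (SE; 95% interval -1.38 to -0.14; adjusted p = 0.377, edgeR).

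Srsf6, which acts on exon inclusion like other SR proteins, ran the other way. It had 409, 369.9 and 348 CPM in the old libraries, against 253, 199, 298 and 307 CPM in the young. All old values were above all young values, and no other of the 61 genes was separated in that direction. Its log2 fold change was 0.51 ± 0.21 (SE; 95% interval 0.03 to 0.99; adjusted p = 0.498, edgeR), and 0.31 without young 1 and young 2. Srsf5, whose gene is induced by growth signals, averaged 648 ± 96.5 CPM across old and 546 ± 45.2 CPM across young libraries (log2 fold change 0.25, interval -0.18 to 0.67). Srsf3, the smallest of the classical SR proteins, averaged 545 ± 65.4 and 482 ± 70.5 CPM in old and young HSCs (interval -0.27 to 0.62).

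Srsf7, which couples splicing to nuclear export, had the highest level per kilobase among the SR genes (697 CPM per kb in old, 863 CPM per kb in young HSCs). It had 1765, 1785 and 1844 CPM in the old libraries, against 1957, 3006, 1927 and 2013 CPM in the young. The groups were separate, with young 2 far above the other 3 young libraries. The log2 fold change was -0.31 ± 0.21 (adjusted p = 0.815, edgeR) with all libraries and -0.13 without young 2. Srsf9 was close in both groups, at 233 ± 41.2 CPM in old HSCs, against 249 ± 13.3 in young (interval -0.56 to 0.36). Srsf4 was scarce, at 4.55 to 7.57 CPM in old and 6.57 to 18.8 CPM in young libraries, and its interval of -3.36 to 1.66 held large changes of either sign. Srsf12 had no count outside young 4, which had 65 counts (2.26 CPM), and was not tested.

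Families differed in how many intervals stayed within a 2-fold change, which depends on the size of a change as well as on precision. The 95% interval of 24 of the 61 genes (39.3%) lay within a 2-fold change in either direction, where that held for 12.5% of all tested genes. At a mean level of 50 CPM or more it held for 51.1% of the splicing genes and 31.7% of all genes. At any level it held for 7 of the 9 SR genes, 8 of 20 hnRNPs, 3 of 8 SF3 genes, 4 of 11 snRNP core genes and 2 of 13 PRPF genes. The families also differed in level: 8 of the 9 SR genes and 10 of the 13 PRPF genes averaged 50 CPM or more. They were not compared at like level. The median biological coefficient of variation was 0.336 over the 61 genes and 0.739 over all tested genes, and 0.312 and 0.367 at 50 CPM or more.

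**Figure D3:**
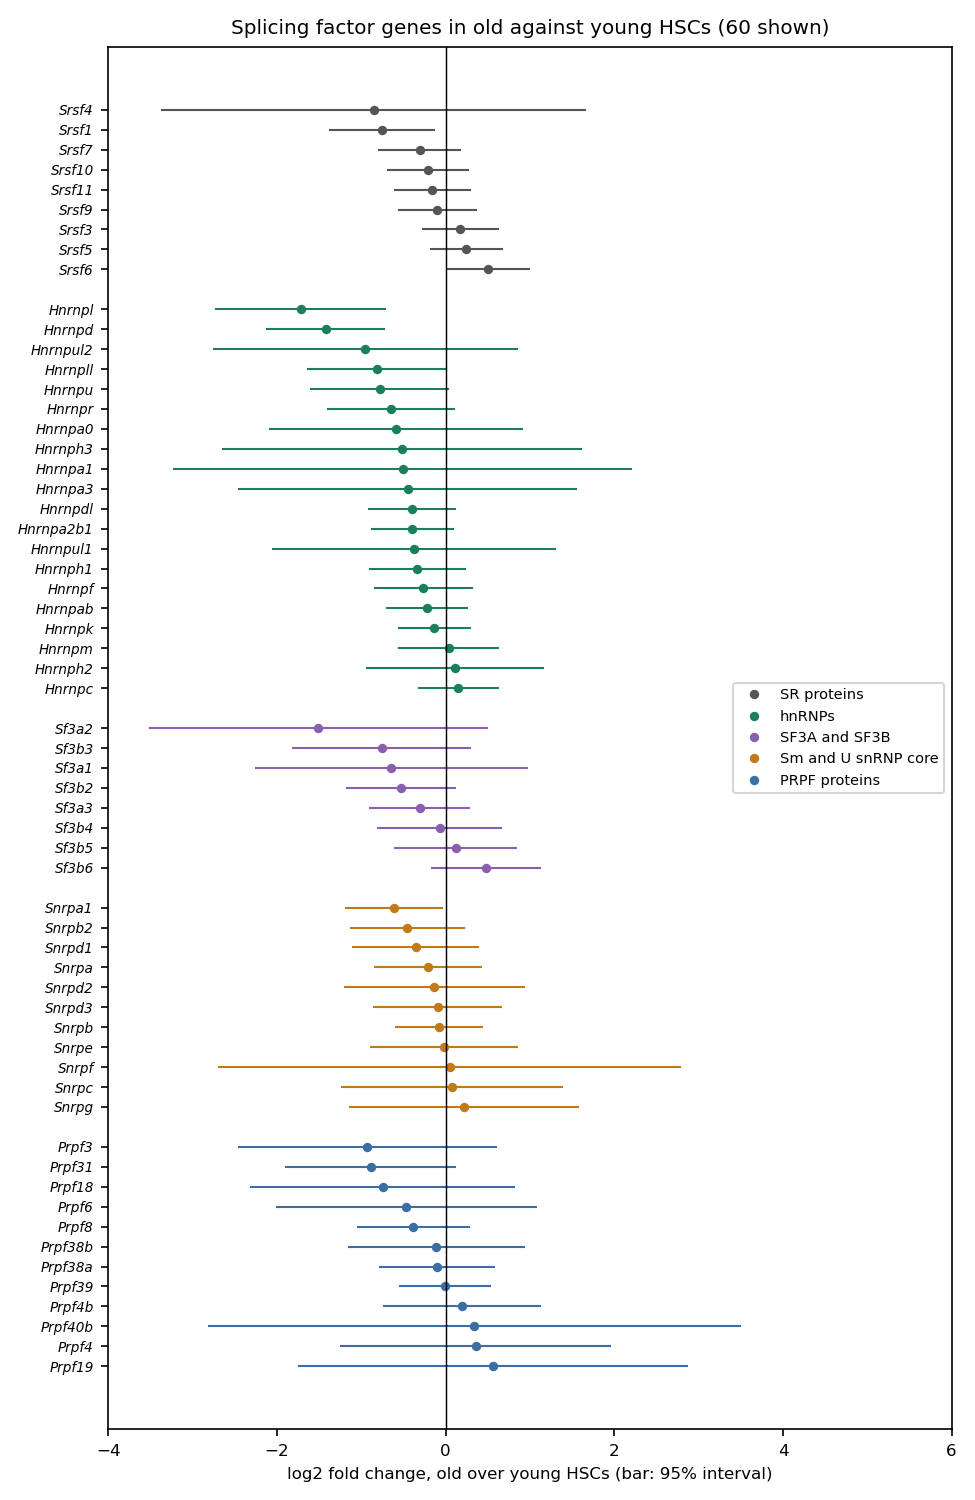
Log2 fold change of old over young HSCs for 60 of the 61 tested splicing genes, by family from top to bottom, with 95% intervals from the edgeR fit. Most points lie left of 0, and the intervals of Hnrnpl, Hnrnpd, Srsf1 and Snrpa1 lie wholly below 0 and that of Srsf6 wholly above.

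SF3A and SF3B, the protein complexes of the U2 snRNP at the branch point, had 6 of 8 members below 0 and a median log2 fold change of -0.42. No single member had separate groups, though old and young libraries did not overlap in the summed level. Sf3b2, a core SF3B subunit, averaged 103 ± 15.6 CPM across old and 148 ± 35.6 CPM across young libraries (log2 fold change -0.53 ± 0.28, adjusted p = 0.665, edgeR). Sf3b3, a scaffold of propeller-shaped domains, averaged 116 ± 72.5 and 197 ± 65.0 CPM in old and young HSCs (interval -1.81 to 0.29). Sf3b6, the small subunit that contacts the branch point region, was on the other side of 0 at 354 ± 96.5 and 254 ± 74.3 CPM (log2 fold change 0.48 ± 0.29). Sf3b4, which contacts RNA beside the branch point, averaged 119.8 ± 18.3 CPM in old HSCs, against 126 ± 45.2 in young.

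Libraries of 1 group varied widely for SF3A. Sf3a1 had 27.6, 43.5 and 69.3 CPM in the old libraries, against 20.3, 24.9, 118 and 129 CPM in the young. Young 1 and young 2 lay below every old library, and young 3 and young 4 above, so that the old range fell between them. Sf3a2 had 2.87, 32.5 and 9.22 CPM in the old libraries, against 57.3, 19.5, 58.9 and 33.6 CPM in the young. Its log2 fold change of -1.51 had a 95% interval of -3.51 to 0.49, and was -2.83 without old 2 and -1.02 without old 1. Sf3a3, the other SF3A subunit, varied little in old HSCs (249 ± 4.34 CPM) and more in young (308 ± 89.2 CPM).

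The snRNP core proteins had 8 of 11 members below 0, with a median log2 fold change of -0.09. Snrpa1, which together with Snrpb2 binds a loop of the U2 RNA, had 217, 245 and 225 CPM in the old libraries, against 385, 472, 260.4 and 281 CPM in the young. The old values were all below the young, with young 3 nearest. The log2 fold change was -0.61 ± 0.25 (SE; 95% interval -1.18 to -0.05; adjusted p = 0.471, edgeR), and -0.24 without young 1 and young 2. Snrpb2 averaged 77.7 ± 12.1 CPM across old and 106 ± 22.8 CPM across young libraries (log2 fold change -0.45, interval -1.12 to 0.21). Snrpa, the corresponding protein of the U1 snRNP, averaged 221 ± 27.7 and 254 ± 79.7 CPM in old and young HSCs (interval -0.83 to 0.42).

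Among the genes of the Sm ring, intervals included 0 throughout. Snrpb, which gives Sm B, averaged 1086 ± 203 CPM in old HSCs, against 1145 ± 237 in young (interval -0.58 to 0.43). Snrpd1 averaged 129 ± 29.0 and 165 ± 57.9 CPM in old and young HSCs. Snrpf (7.07 ± 3.48 CPM in old, 6.83 ± 3.21 CPM in young HSCs) and Snrpg (31.8 ± 9.96 and 27.3 ± 8.08 CPM) had wide intervals. Of the 11 snRNP core genes, 10 had their highest level in young 2 and 4 their lowest in young 3. As these genes were counted in the same libraries, this describes those libraries and not young HSCs in general.

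**Figure D4:**
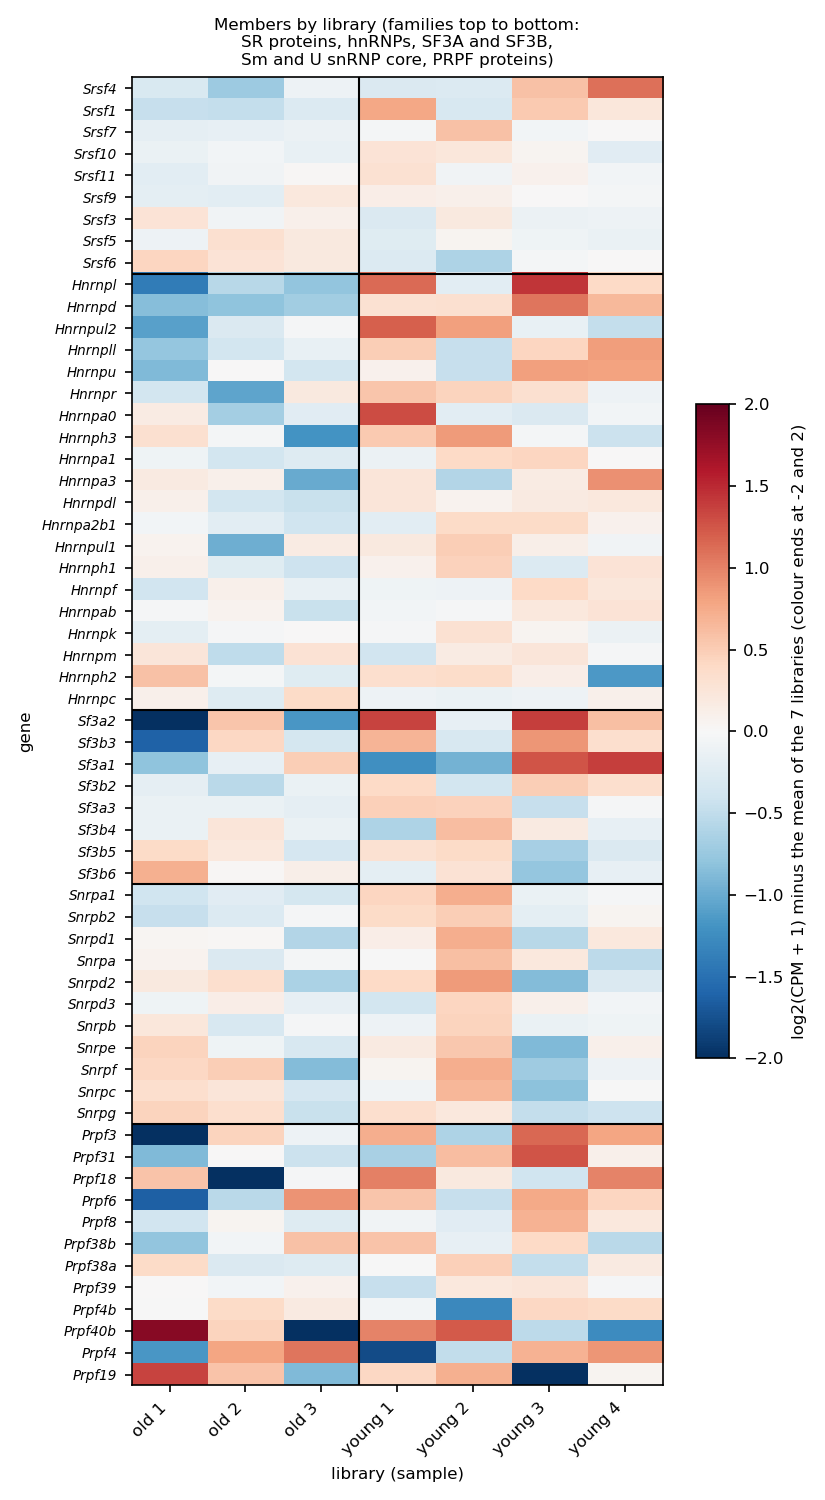
log2(CPM + 1) of 60 of the 61 tested genes in each library minus the gene's mean over the 7 libraries, old libraries left of young, families separated by lines. Hnrnpl and Hnrnpd are low in all old libraries, 10 of the 11 snRNP core genes are highest in young 2, and Sf3a1 is lowest in young 1 and young 2. Colours end at -2 and 2.

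The PRPF proteins had 9 of 13 members below 0 and a median log2 fold change of -0.11. Old and young libraries did not overlap in their summed level, but no single member had separate groups. Prpf31, a tri-snRNP protein linked in humans to retinitis pigmentosa, averaged 85.6 ± 26.3 CPM across old and 159 ± 85.2 CPM across young libraries (log2 fold change -0.89 ± 0.45, adjusted p = 0.629, edgeR). Its level in young 1 (71.2 CPM) lay within the old range. Prpf3, another tri-snRNP protein, had 8.72, 67.9 and 46.2 CPM in the old libraries, against 82.9, 31.9, 111 and 86.0 CPM in the young, and old 1 stood far below the rest.

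Prpf8, the scaffold of the catalytic centre, averaged 112 ± 18.1 CPM in old HSCs, against 146 ± 43.5 in young (log2 fold change -0.39, interval -1.04 to 0.27). Prpf39, whose yeast counterpart is a U1 snRNP protein, averaged 175 ± 8.84 CPM across old and 176 ± 36.5 CPM across young libraries (interval -0.55 to 0.53). Prpf19, a ubiquitin ligase of the catalytic spliceosome, ran from 6.57 to 34.6 CPM in old and from 2.02 to 21.9 CPM in young libraries, which leaves an interval of -1.74 to 2.87.

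Several of these genes have processed pseudogenes, copies of the spliced transcript elsewhere in the genome whose likeness can cost or misplace reads. A search of 10251 processed pseudogenes of GENCODE M21 for at least 90% identity over at least 50% of the pseudogene found 1 or more for 31 of the 62 genes. Hnrnpa3 had 37, Hnrnpa1 17, Snrpc 9, Hnrnpf 7, Snrpa 6 and Srsf3 5. Hnrnpa1, the classical splicing repressor, was at only 4.97 ± 0.586 CPM in old HSCs, against 7.06 ± 1.52 in young, and Hnrnpa3 at 12.7 ± 5.38 and 17.3 ± 7.61 CPM. The levels of these genes are uncertain, and the part of read assignment in them was not tested. Among the 5 genes with separate groups, Hnrnpl and Srsf7 had 1 such copy each and Hnrnpd, Snrpa1 and Srsf6 none.

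Beyond the 62 genes, 110 further splicing genes were tested in 4 lists, and again none passed edgeR, which called 0.252% of all tested genes in either direction. Of other snRNP proteins 23 of 33 were below 0 (median log2 fold change -0.25), of the catalytic spliceosome and exon junction 20 of 28 (median -0.20), of SR-related regulators and SR kinases 15 of 21 (median -0.14) and of other splicing regulators 19 of 28 (median -0.19), where 51.5% of all tested genes were below 0. At an unadjusted p under 0.05, 3, 2, 0 and 4 of these lists' genes were lower and 0, 0, 1 and 0 higher, in the same order, against 4.49% and 4.62% of all tested genes. The groups were separate, in that order, for 0, 4, 0 and 5 genes lower in old and 0, 0, 3 and 0 higher. Over all tested genes 5.18% were separate and lower and 7.55% separate and higher. Other snRNP proteins summed to 3795 to 4125 CPM in old and 4466 to 5824 CPM in young libraries. Other splicing regulators summed to 3935 to 4198 and 4527 to 6026 CPM, again without overlap. The summed levels of the remaining lists overlapped. Of the 30 regulators listed, Hnrpdl and Hnrpll are not rows of the table, which carries these genes under Hnrnp symbols.

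Clk1, a kinase that phosphorylates SR proteins and so releases them from nuclear speckles, had 1010.0, 526 and 772 CPM in the old libraries, against 284, 428, 269 and 303 CPM in the young. The groups were separate, with Clk1 higher in each old library. The log2 fold change was 1.26 ± 0.27 (SE), with an adjusted p of 0.138 in edgeR, 5.93e-04 in DESeq2 and 0.0259 in the edgeR fit to genes averaging 50 CPM or more.

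The related genes described next did not pass any of these fits. Ewsr1, an RNA-binding protein of the FET family, was lower in each old library. It averaged 186 ± 61.8 CPM across old and 343 ± 70.3 CPM across young libraries. Eftud2, the GTPase of the U5 snRNP, ran from 23.6 to 87.0 CPM in old and from 50.8 to 379 CPM in young libraries. Sf1, the first protein to bind the branch point, averaged 37.2 ± 25.4 and 105 ± 53.2 CPM in old and young HSCs. Ppil1 and Isy1, proteins of the catalytic spliceosome, were lower in each old library: Ppil1 averaged 193 ± 13.2 CPM in old HSCs, against 281 ± 40.2 in young, and Isy1 92.0 ± 8.73 and 136 ± 20.7 CPM. Rbm39, an SR-related protein, was higher in each old library and averaged 607 ± 147 CPM across old and 454 ± 18.7 CPM across young libraries.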

How the data were processed

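Polyadenylated RNA of sorted HSCs was made into cDNA with Smart-seq+ and into libraries with Nextera XT, which does not mark strand, per the labels' protocols. Trimmomatic, FastQC, STAR and featureCounts and the build mm9 are named in the submitters' processing notes. The sources used here give no versions, settings or annotation. The deposited table holds raw counts per gene symbol for 7 libraries, which were grouped by their labels. No molecular identifiers are stated, so counts may include amplification copies and intervals on them cover less than the full error.

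Counts were fitted on the whole table with edgeR 4.0.16 in R 4.3.3: filterByExpr (minimum count 10, minimum total 15; 11506 genes kept), TMM scaling, and the 2-sided quasi-likelihood F test of old against young with Benjamini-Hochberg adjustment over all tested genes. SE was taken as the size of the log2 fold change over the root of F, and 95% intervals use the test's degrees of freedom. Levels per kilobase use the union of exons of GENCODE M21, matched by symbol for all 62 genes. DESeq2 1.42.0, limma-voom (limma 3.58.1), 3 other scalings, 2 other filters, the replicate number as a block, thinning to the smallest total and leaving out libraries were the alternatives. The edgeR procedure was tested on simulated counts for old against young with 11506 genes: of 50 genes changed at each size it found 1 at 2-fold, 12 at 4-fold, 31 at 8-fold and 33 at 16-fold, and 2 of its 79 calls were false. BLAST 2.17.0 was used for the pseudogene search. Named genes are, in each family, the 4 with the smallest p, the one with the largest p and those with the highest and the lowest fold change, and in each related list the 2 with the smallest p; Srsf12 was added as having no count in old HSCs, and 2 genes so chosen are not reported here. Srsf3, Hnrnpk, Hnrnpa1, Hnrnpa3, Sf3a1, Sf3a3 and Snrpb go beyond that choice or were picked after their values were seen. The members and lists were chosen with earlier results of these data known. Gene counts were not length-corrected except where stated, and transcript isoforms were not analysed here.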

Additional observations from a re-analysis of the deposited data

Results flagged for a closer look

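In 3 of 35 named genes with a fit, 1 of the 4 young libraries lay so far from the others that its gap exceeded Dixon's 95% limit of 0.829 of the group's range. Chance gives about 1 in 20 groups. Srsf7 was at 3006 CPM in young 2, where the remaining young libraries had 1927 to 2013 CPM. Hnrnpc was at 490.1 CPM in young 4, where the remaining 3 had 416 to 425 CPM. Rbm39 was at 426 CPM in young 3, where the remaining 3 had 459.8 to 466 CPM.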

How the results depend on the processing

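No splicing gene was called higher under any of the 17 alternatives. DESeq2 called 2 lower (Hnrnpd and Hnrnpl), against 0 in edgeR with all tested genes. The fit to genes averaging 50 CPM or more called 1 lower (Hnrnpd, which reached that level only through the young libraries). DESeq2 and that fit each also called 1 related gene higher (Clk1) and 1 lower. The other 15 called none of either. The median log2 fold change of the splicing genes was -0.31 to -0.20 without single libraries, smallest without young 2, and -0.11 without young 1 and young 2; the cause was not tested. Over all tested genes the median moved from -0.03 to -0.12 with library size alone and to 0.10 with the replicate block, where that of the splicing genes was -0.39 and -0.30. The share of counts differed by -0.28 percentage points (old minus young) both with all genes and without ribosomal protein and mitochondrial genes in the total. The replicate numbers did not pair the libraries (correlations of deviations -0.07 to 0.03), and with the replicate block 0 splicing genes and 0 of all genes passed, against 29 without it.

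Of 35 named genes, 7 changed sign under an alternative, none of them past the threshold, and the cause was not tested. Without single libraries the log2 fold change ran from -0.10 to 0.23 (Hnrnpm), -0.013 to 0.29 (Hnrnpc), -0.25 to 0.17 (Sf3b4), -0.21 to 0.41 (Snrpf), -0.14 to 0.075 (Prpf39) and -0.067 to 0.98 (Prpf19), and without both young 1 and young 2 it was 0.58 for Snrpf and 1.39 for Prpf19. Hnrnpm was at -0.015 with limma-voom, -0.066 with library size alone, -0.036 among genes averaging 50 CPM or more and -0.063 without young 1 and young 2. limma-voom gave 0.0050 for Sf3b4 and 0.0071 for Prpf39. Library size alone gave -0.010 for Snrpf, and the replicate block -0.019 for Snrpf and 0.011 for Prpf39. Without young 1 and young 2, Snrpa was at 0.033, where it ran from -0.37 to -0.0036 without single libraries. In the simulation over all genes, under 50% of genes changed 4-fold or less were found. Changes of that size in a single gene of such spread could be missed with these libraries. The changed genes were not drawn from the splicing genes alone. The median biological coefficient of variation was 0.739 over all tested genes and 0.336 over the 61 splicing genes. The simulation therefore does not give the rate at which changes in splicing genes would be found.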
